A study of Sus scrofa with 12 samples.

Results

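miR-9, miR-124, miR-129, miR-137, miR-153, miR-383 and miR-384 are miRNA families best known for high levels in brain, and they are described here as found in pig testis. The rows were chosen by name from the deposited expression table, and 25 of its 1452 rows matched. Of these names, 10 carried the pig prefix ssc- and 15 were unprefixed and ended in -x, -y or -z. The measured value behind this choice is that a row was counted at all, since the table lists only such rows, so the presence of these families is a description. The changes of some of them, ssc-miR-153, miR-383-x and miR-384-y included, were known from these libraries when the families were put together. The edgeR values below therefore describe the rows and are not independent support for a change.

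Testes of 2 breeds were sequenced for small RNA. The groups Ha and Hb are Hezuo (HZ) boars, 30 and 120 days old, and the groups La and Lb are Landrace (LC) boars of the same 2 ages. HZ is a native Chinese breed known for early sexual maturity and LC is an introduced western breed. The labels name no treatment or genetic change in any group. Each of the 4 groups has 3 libraries, and the comparisons ask how miRNA levels differ with age within a breed and between the breeds at one age. The study's methods give 3 boars per breed and age and say that RNA came from pooled samples, so it is not clear whether each library is 1 boar. The p-values measure the spread between these libraries, part of which may be technical.

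A miRNA is cut as a short duplex from a hairpin precursor, and one or both strands, the 5p and the 3p arm, are kept in a silencing complex. The bases near its 5′ end, the seed, do most of the pairing with target mRNAs. miR-124 and miR-9 are classical miRNAs of neurons and neural progenitors, miR-137 acts in neural differentiation, and miR-129, miR-153 and miR-384 are known for roles at the synapse. In testis and ovary, miR-383 has been studied in germ and granulosa cells.

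The following mature sequences, as listed in the deposited table, are those on which the results turn, printed 5′ to 3′ with the seed (bases 2 to 8) in capitals.
ssc-miR-9-1: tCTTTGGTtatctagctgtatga
miR-9-z: aTAAAGCTagataaccgaaagt
ssc-miR-124a: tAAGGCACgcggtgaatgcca
ssc-miR-129a-5p: cTTTTTGCggtctgggcttgc
ssc-miR-129a-3p: aAGCCCTTaccccaaaaagcat
miR-129-y: aAGCCCTTaccccaaaaagtat
ssc-miR-137: tTATTGCTtaagaatacgcgtag
ssc-miR-153: tTGCATAGtcacaaaagtga
miR-383-x: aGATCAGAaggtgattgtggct
miR-384-y: aTTCCTAGaaattgttcacaat
miR-384-x: tGTAAACAattcctaggtaat

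The 25 rows hold 23 distinct sequences with 17 distinct seeds. ssc-miR-9-1 and ssc-miR-9-2 have one sequence and identical counts in all 12 libraries, and so do ssc-miR-129a-5p and ssc-miR-129b. ssc-miR-9 is 1 base shorter than ssc-miR-9-1 and had the same count in 7 of 12 libraries. These rows count the same tags and are described once, as ssc-miR-9-1 and ssc-miR-129a-5p. Other rows, such as miR-9-x, miR-124-y, miR-129-x and miR-153-y, extend a pig sequence by 2 or 3 bases at the 3′ end, keep its seed and had counts of their own. miR-129-y has the seed of ssc-miR-129a-3p and differs from it by 1 substitution, C20T, counted from 1 at the 5′ end with the base of ssc-miR-129a-3p first. Most seeds belonged to these families alone in the table. The seed of ssc-miR-383 is also that of miR-2944-y (22 counts), and that of the miR-129 5p rows is shared by 2 miR-9983 rows (111 counts). The seed of miR-384-x is also that of 7 miR-30 rows. Those 7 rows hold 4558941 counts over the 12 libraries and miR-384-x holds 173.

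In the RefSeq annotation of Sscrofa11.1, MIR9-1 lies on chromosome 4 from 93660422 to 93660510, within the bounds of the long non-coding RNA gene LOC106510131. MIR9-2 lies on chromosome 2 from 96076352 to 96076438, between genes, 46.0 kb from MEF2C, the nearest protein-coding gene. MIR9-3 lies on chromosome 7 from 54948452 to 54948532, also between genes. MIR124A-1 is on chromosome 4 from 69968854 to 69968958 and MIR124A-2 on chromosome 14 from 13201425 to 13201509, both outside other annotated genes. MIR129A is on chromosome 2 from 18724220 to 18724299, within the bounds of the long non-coding RNA gene LOC100521654, and MIR129B on chromosome 18 from 20157213 to 20157296, 33.1 kb from LEP, the leptin gene. MIR137 is on chromosome 4 from 119793993 to 119794074, 137.4 kb from DPYD, and MIR383 is on chromosome 17 from 2698041 to 2698122, within the bounds of the protein-coding gene SGCZ.

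The listed counts sum to between 6520197 and 16874633 per library. The deposited TPM (tags scaled to a library total) divide by a larger total than these sums, and on that scale 3 counts, the floor used here, are worth 0.158 to 0.404 TPM. miR-202, which marks the gonad, stood between 9608 and 24405 TPM in every library, summed over 5 rows. The rows for meiotic and haploid germ cells (miR-34b, miR-34c and the miR-449 family) summed to 16.6 to 76.9 TPM at 30 days. At 120 days they summed to 11279 to 13895 TPM in Lb but to 4303, 2580.2 and 13177 TPM in Hb libraries 1, 2 and 3. Hb library 2 also had the lowest gonad sum and the lowest TMM factor, 0.694 against 1.195 in Hb library 1. The 3 Hb libraries differed among themselves more than those of any other group, with a chi-square per degree of freedom of 417.9 to 1178 against 49.45 to 242.6 elsewhere.

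Rows were called where edgeR's quasi-likelihood test gave an unadjusted p under 0.05 together with a log2 fold change of more than 1 in size, and "up" means higher in the group named last. Adjusted p-values are Benjamini-Hochberg values from edgeR over all rows tested. In Ha vs. Hb, 12 of the 25 rows were called, 9 up and 3 down, where 39.6% of all 1441 rows tested were called, 25.1% up and 14.4% down. In La vs. Lb, 12 of the 25 rows were called, all of them up, where 32.1% of 1446 rows were called, 26.3% up and 5.81% down. All 12 calls of each comparison also had an adjusted p under 0.05, as 31.6% of all rows did with the same fold in HZ and 28.6% in LC. No row of these families was called down in La vs. Lb by edgeR or by DESeq2, and none fell at an unadjusted p under 0.05. The median log2 fold change with age was 0.84 in HZ and 1.75 in LC, against 0.32 over all rows in each breed. Since 3 of the rows in each count are the same miR-9 tags, the shares are no measure of how often these families changed. When rows of one sequence were merged, 11 and 10 of 23 rows were called.

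The calls common to both breeds were 8 rows of miR-9, miR-153 and miR-383, and each moved upward in both, as did 264 of the 1435 rows of the table tested in both breeds (18.4%). Of these 1435 rows, 267 were called only in HZ (18.6%) and 159 only in LC. The 4 rows called with age only in HZ were ssc-miR-137, ssc-miR-383, miR-384-y and miR-384-x. The 4 called only in LC were ssc-miR-129a-5p, ssc-miR-129b, ssc-miR-129a-3p and miR-129-x. These lists do not show that the breeds differ, which was tested separately and is given below. The 8 rows called in no comparison were the 4 of miR-124 together with miR-137-y, miR-137-x, miR-9-y and miR-153-x, where 645 of all 1452 rows (44.4%) were called in none. Of the 8, miR-124-z, miR-137-x and miR-9-y were called under some of the alternatives.

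**Figure D1:**
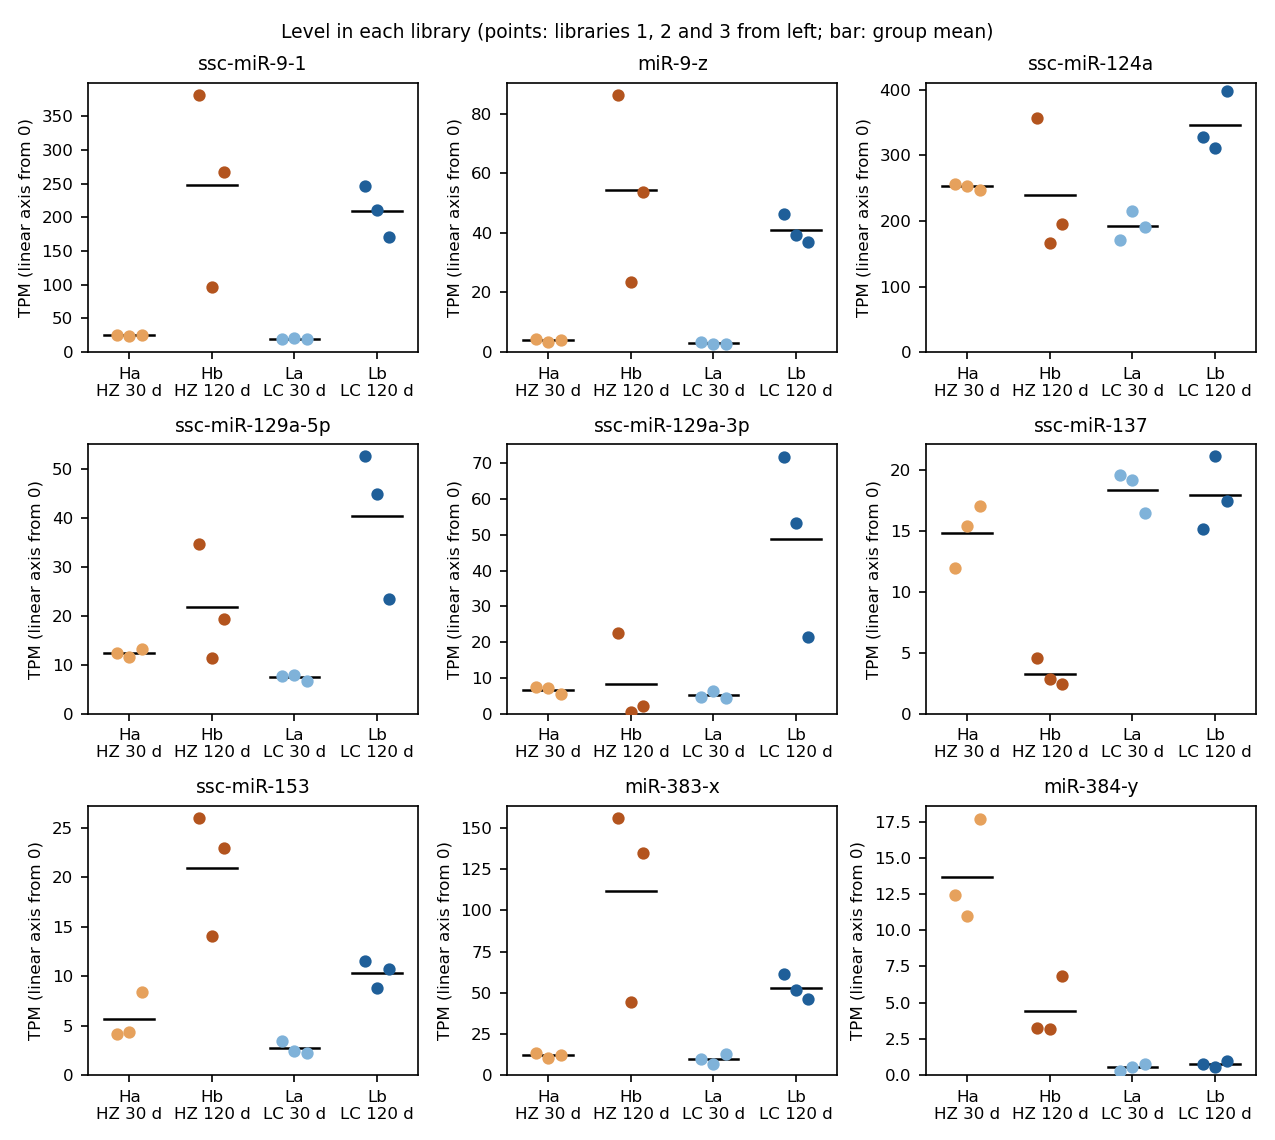
Level in TPM (linear axis from 0) of 9 brain-enriched miRNAs in each testis library. Points are libraries 1 to 3 of each group and bars are group means. ssc-miR-9-1, miR-383-x and ssc-miR-153 are higher at 120 days in both breeds, ssc-miR-137 is low in Hb, and miR-384-y is near 0 in LC.

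miR-9, a regulator of neural progenitors, rose about 10-fold with age in both breeds. ssc-miR-9-1, its 5p arm, had 24.9, 24.3 and 25.7 TPM in Ha and 381, 97.2 and 267 TPM in Hb. It had 19.2, 21.4 and 18.6 TPM in La and 247, 210.3 and 171 TPM in Lb. Every library at 120 days lay above every library at 30 days, and within Hb the levels were widely spread, with library 2 lowest. The mean was 9.95 times higher in Hb (248 ± 143 TPM, SD, n = 3) than in Ha (25.0 ± 0.747), and 10.6 times higher in Lb (209 ± 38.0) than in La (19.7 ± 1.50). The log2 fold change was 3.32 ± 0.34 (SE) in HZ (edgeR adjusted p = 1.01e-05) and 3.22 ± 0.16 in LC (edgeR adjusted p = 5.46e-09). The breeds were not called different at either age. The sum of the germ cell rows moved with age in the same direction as miR-9, and its part in the rise was not tested. In whole testis, more cells of a type and more of the miRNA per cell cannot be told apart.

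The other arm of the hairpin, miR-9-z, rose as well. It had 4.24, 3.35 and 4.17 TPM in Ha, 86.2, 23.4 and 53.9 in Hb, 3.32, 2.84 and 2.85 in La, and 46.2, 39.2 and 37.1 in Lb. The log2 fold change was 3.81 ± 0.38 in HZ (edgeR adjusted p = 7.4e-06) and 3.58 ± 0.19 in LC (edgeR adjusted p = 1.08e-08). The longer form miR-9-x rested on few counts at 30 days, 5 in all 3 Ha libraries and 6 in La, against 79 in Hb and 152 in Lb. Its depth-scaled ratio was 20.4 in HZ (exact 95% interval 8.39 to 64.6) and 28.9 in LC (13.0 to 80.1). The intervals cover counting error only. miR-9-y, a form of the 3p arm that starts 1 base later, had 11 counts in all and was not called.

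miR-383 lies in the gene for zeta-sarcoglycan. miR-383-x, the 5p arm, had 13.5, 10.2 and 12.3 TPM in Ha, 156, 44.5 and 135 in Hb, 9.77, 6.73 and 13.0 in La, and 61.1, 51.6 and 46.1 in Lb. The ages did not overlap in either breed. In TPM, Hb library 2 lay below the 3 Lb libraries while Hb libraries 1 and 3 lay above them. TPM carry no TMM factor, which was 0.694 in Hb library 2 and 1.11 to 1.165 in Lb. The place of Hb library 2 below Lb therefore holds for TPM and not for the scale of the fits. Its log2 fold change with age was 3.24 ± 0.36 in HZ (edgeR adjusted p = 1.8e-05) and 2.23 ± 0.23 in LC (edgeR adjusted p = 1.02e-05). The difference between these age effects was not called (-1.06 ± 0.42, edgeR adjusted p = 0.153). At 120 days the mean was 112 ± 59.2 TPM in Hb and 52.9 ± 7.58 in Lb, and Hb vs. Lb was called (-1.27 ± 0.30, edgeR adjusted p = 0.0429). ssc-miR-383, the 3p arm, was at the limit of detection, with 2 counts over the Ha libraries, 16 over Hb, 2 over La and 6 over Lb. The depth-scaled ratio of Hb to Ha was 10.3 (exact 95% interval 2.43 to 92.7), that of Lb to La was 3.43 (0.613 to 34.7), and that of Lb to Hb was 0.255 (0.0816 to 0.685). Between libraries, Ha vs. Hb was called (edgeR adjusted p = 0.0219), La vs. Lb was not (0.418), and Hb vs. Lb was called at the unadjusted p alone (edgeR adjusted p = 0.171). The adjusted p of Ha vs. Hb rose above 0.05 with the replicate block and without Hb library 3 or any 1 Ha library (up to edgeR adjusted p = 0.0919). La library 3 held both La counts, so the fitted fold in LC rests on it.

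miR-153, known for targets in synaptic vesicle release, rose between the ages, and at 120 days ssc-miR-153 was higher in HZ than in LC. ssc-miR-153 had 4.15, 4.36 and 8.43 TPM in Ha and 26.0, 14.0 and 22.9 in Hb. In LC it had 3.40, 2.46 and 2.27 TPM in La and 11.5, 8.81 and 10.7 in Lb. The 4 groups did not overlap, in the order La, Ha, Lb and Hb. The log2 fold change with age was 1.97 ± 0.37 in HZ (edgeR adjusted p = 0.00119) and 1.75 ± 0.25 in LC (edgeR adjusted p = 0.000122). At 120 days, Hb (21.0 ± 6.25 TPM) exceeded Lb (10.3 ± 1.36) by 2.03-fold in the means, and Hb vs. Lb was called (-1.29 ± 0.31, edgeR adjusted p = 0.0427). At 30 days, Ha (5.65 ± 2.41) vs. La (2.71 ± 0.607) was not called (-0.99 ± 0.31, edgeR adjusted p = 0.0544, and -0.57 without Ha library 3). The longer miR-153-y had group means of 0.724, 4.06, 0.614 and 2.29 TPM in Ha, Hb, La and Lb and was called up with age in both breeds (edgeR adjusted p = 0.00272 and 0.0041) but in neither comparison of breeds (0.832 and 0.237). miR-153-x, the other arm, had 8 counts in all.

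**Figure D2:**
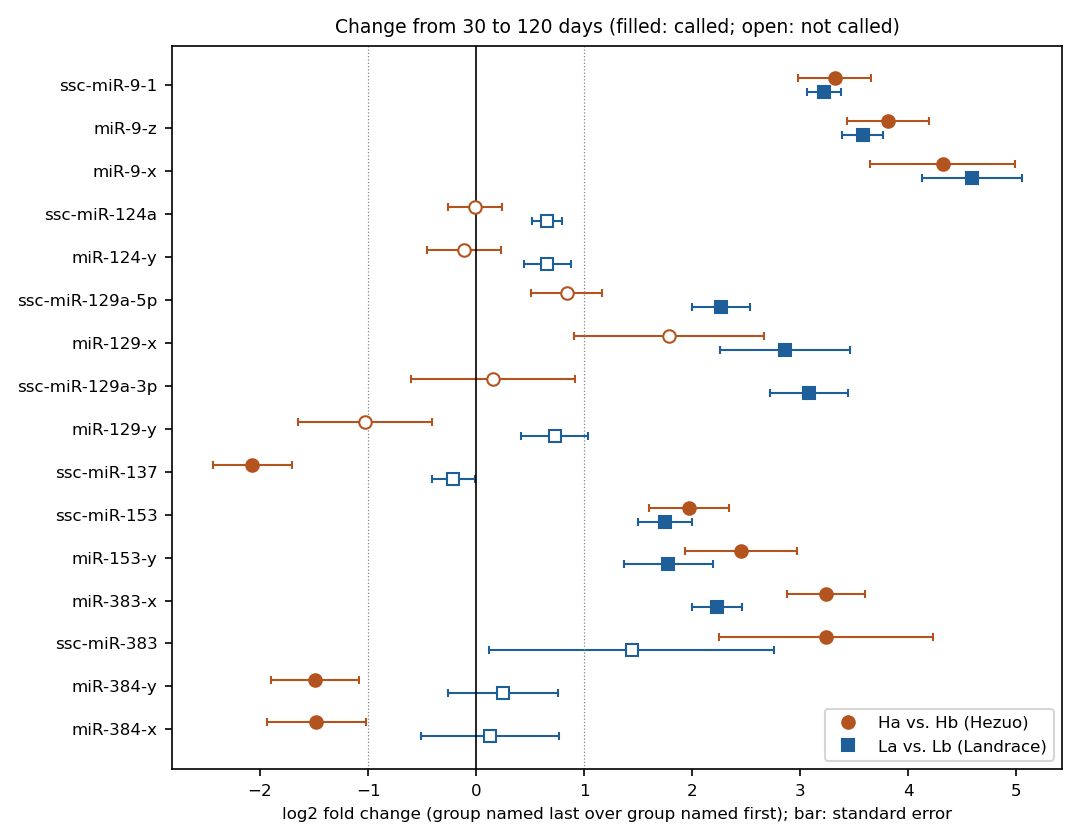
Log2 fold change with age (120 over 30 days, edgeR, error bars SE) of 16 brain-enriched miRNA rows in HZ (Ha vs. Hb) and LC (La vs. Lb). Filled points were called. Rows of miR-9, miR-153 and miR-383-x lie to the right in both breeds, ssc-miR-137 is at -2.07 in HZ and -0.21 in LC, and ssc-miR-129a-3p is at 0.16 in HZ and 3.08 in LC.

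miR-137, which restrains chromatin regulators in neural stem cells, fell with age in HZ. ssc-miR-137 had 12.0, 15.4 and 17.1 TPM in Ha and 4.58, 2.83 and 2.45 in Hb. In LC it had 19.6, 19.2 and 16.5 TPM in La and 15.2, 21.2 and 17.5 in Lb. The 3 Hb libraries lay below all 9 others, and the ages overlapped in LC. The mean was 4.52 times higher in Ha (14.8 ± 2.62) than in Hb (3.29 ± 1.14), with a log2 fold change of -2.07 ± 0.37 (edgeR adjusted p = 0.000777). In LC the means were 18.5 ± 1.71 and 18.0 ± 3.00 TPM and the log2 fold change was -0.21 ± 0.20 (edgeR adjusted p = 0.436). At 120 days Lb stood 5.47 times above Hb (2.15 ± 0.37, edgeR adjusted p = 0.0086).

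The change with age in LC minus that in HZ, (Lb - La) - (Hb - Ha), was 1.80 ± 0.38 on the log2 scale for ssc-miR-137 (edgeR adjusted p = 0.0355). It was the only 1 of the 25 rows called for this difference, where 1.38% of all 1452 rows were called. The call was lost when library sizes alone set the scale (2.16, edgeR adjusted p = 0.0693) and in 8 of the 12 fits that left out 1 library (edgeR adjusted p = 0.0553 to 0.136). The exceptions were the fits without Ha library 3, Hb libraries 1 or 2, or Lb library 2. At an unadjusted p under 0.05, 10 of the 25 rows passed, where 21.1% of all rows did. The low-count rows miR-137-y, shifted by 1 base and with other bases at its 3′ end, and miR-137-x, the other arm, had 44 and 28 counts in all and were not called.

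miR-384 set the breeds apart. miR-384-y, the 3p arm, had 12.4, 11.0 and 17.7 TPM in Ha and 3.23, 3.16 and 6.82 in Hb. In La it had 0.262, 0.569 and 0.791 TPM, from 3, 6 and 15 counts, and in Lb 0.794, 0.524 and 0.979, from 12, 5 and 11 counts. Every HZ library lay above every LC library of either age, and the LC levels were close to the floor. The mean was 25.3 times higher in Ha (13.7 ± 3.55) than in La (0.540 ± 0.266) and 5.75 times higher in Hb (4.41 ± 2.09) than in Lb (0.766 ± 0.229). The log2 fold change was -4.47 ± 0.34 in Ha vs. La (edgeR adjusted p = 7.07e-07) and -2.81 ± 0.51 in Hb vs. Lb (edgeR adjusted p = 0.0101). Within HZ it fell with age by 1.49 ± 0.41 on the log2 scale (edgeR adjusted p = 0.0122). The call held under 13 alternatives, at -1.91 to -1.09, with an edgeR or DESeq2 adjusted p up to 0.061. In LC the value was 0.25 ± 0.51 (edgeR adjusted p = 0.721), and the difference between the age effects was not called (1.70 ± 0.64, edgeR adjusted p = 0.135).

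miR-384-x, the 5p arm with the miR-30 seed, followed the same order. Its means were 3.74 ± 0.966 TPM in Ha and 1.19 ± 0.237 in Hb, and 0.276 ± 0.0976 in La and 0.356 ± 0.0413 in Lb. The LC values rest on 2, 3 and 7 counts in La and 6, 3 and 4 in Lb, close to the floor. The log2 fold change was -3.56 ± 0.39 in Ha vs. La (edgeR adjusted p = 3.79e-05) and -1.48 ± 0.46 in Ha vs. Hb (edgeR adjusted p = 0.0231). Under 13 alternatives the call in Ha vs. Hb held, at -1.68 to -1.09, with an edgeR or DESeq2 adjusted p up to 0.1. Hb vs. Lb was called at the unadjusted p alone (-2.06 ± 0.63, edgeR adjusted p = 0.0878). The 7 miR-30 rows with its seed had a summed mean of 36654 TPM in Ha and 27023 in Hb, and 35832 in La and 36015 in Lb.

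Between the breeds, the 2 miR-384 rows were the only ones of the 25 called at 30 days, both down in LC, where 9.47% of 1278 rows were called and 5.71% were called down. Both also had an adjusted p under 0.05, as 5.24% of all rows did with the same fold. At 120 days 8 of 25 rows were called, 3 up and 5 down, where 16.8% of 1444 rows were called, 8.45% up and 8.38% down. With the adjusted p, 4 of the 8 remained, ssc-miR-137, ssc-miR-153, miR-383-x and miR-384-y, where 3.25% of all rows passed. Of 13 alternatives, ssc-miR-153 and miR-383-x each missed an adjusted p of 0.05 in 5 (edgeR adjusted p up to 0.257), miR-384-y in 3 (up to 0.0911) and ssc-miR-137 in 1, without Hb library 3 (0.0618). Those 5 were library size alone and the fits without Hb library 3 or any 1 Lb library, and the 3 were library size alone and the fits without Hb library 3 or Lb library 1. The median log2 fold change of the 25 rows was -0.28 at 30 days and 0.12 at 120 days, against -0.01 and 0.06 over all rows.

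**Figure D3:**
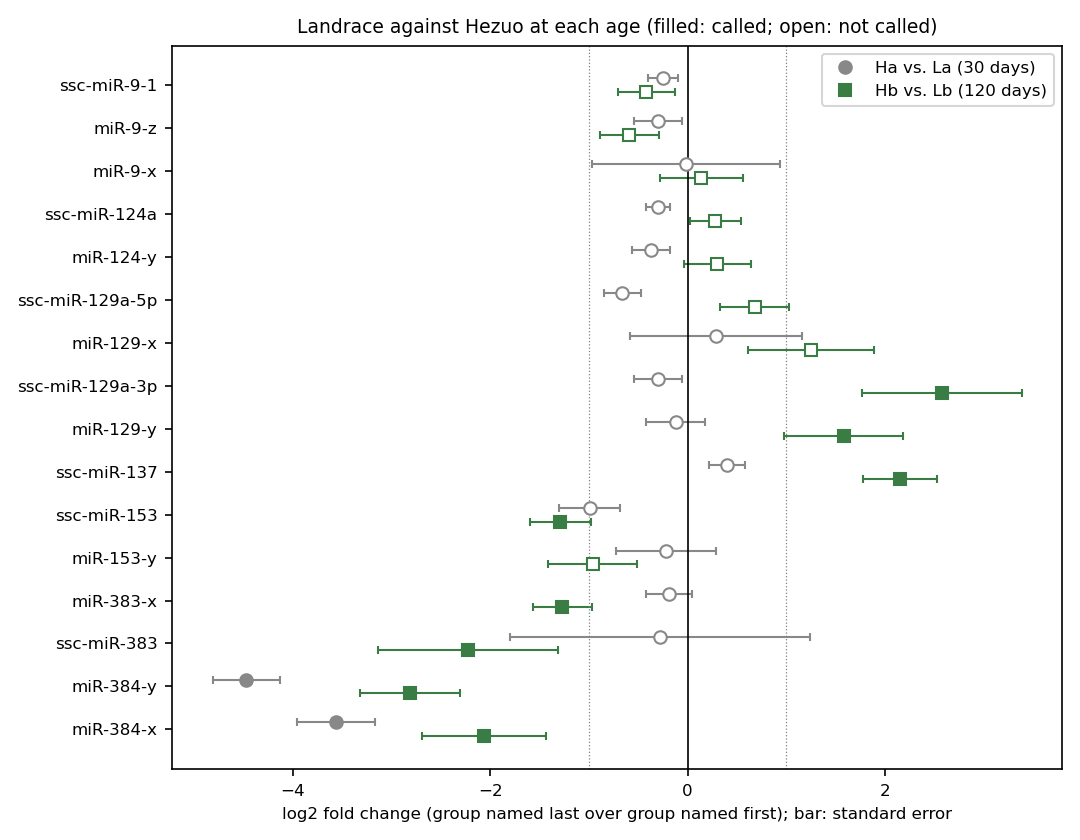
Log2 fold change between breeds (LC over HZ, edgeR, error bars SE) of the same 16 rows at 30 days (Ha vs. La) and 120 days (Hb vs. Lb). Filled points were called. miR-384-y is at -4.47 and -2.81, and ssc-miR-137 is at 0.40 at 30 days and 2.15 at 120 days.

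miR-129, known for repressing a potassium channel in dendrites and for a part in ciliogenesis, was called up with age in LC. ssc-miR-129a-5p had 7.68, 7.87 and 6.54 TPM in La and 52.6, 44.7 and 23.4 in Lb, with no overlap and a log2 fold change of 2.27 ± 0.27 (edgeR adjusted p = 2.31e-05). In HZ it had 12.4, 11.5 and 13.1 TPM in Ha and 34.5, 11.4 and 19.2 in Hb, with a log2 fold change of 0.84 ± 0.33 (edgeR adjusted p = 0.0641). Hb library 2 lay below the Ha libraries and the other two lay above them. Without Hb library 2 the rise in HZ was called (1.03, edgeR adjusted p = 0.00924). The difference between the age effects was not called (1.37 ± 0.42, edgeR adjusted p = 0.0832), but it was without Hb library 1 (1.63, edgeR adjusted p = 0.0162) and with DESeq2 (1.31, DESeq2 adjusted p = 0.0293). miR-129-x, a longer form with 9 counts in La and 68 in Lb, was called up in LC at a depth-scaled ratio of 8.63 (exact 95% interval 4.29 to 19.7). In HZ it had 6 counts in Ha and 16 in Hb, a ratio of 3.45 (1.28 to 10.8). It was not called there (edgeR adjusted p = 0.126), but was under some alternatives, such as without Hb library 2 (2.13, edgeR adjusted p = 0.061).

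The 3p arm of miR-129 differed widely within Hb. ssc-miR-129a-3p had 7.38, 7.10 and 5.37 TPM in Ha and 4.54, 6.16 and 4.48 in La. At 120 days it had 71.7, 53.3 and 21.4 TPM in Lb but 22.4, 0.436 and 2.06 in Hb, from 166, 4 and 16 counts. In LC the ages did not overlap (3.08 ± 0.36, edgeR adjusted p = 2.35e-05). In HZ library 1 of Hb lay above Ha and libraries 2 and 3 below it, and the log2 fold change was 0.16 ± 0.76 (edgeR adjusted p = 0.886). Without Hb library 1 the value turned to -2.08 and was called (edgeR adjusted p = 0.00255). The difference between the age effects was 2.85 ± 1.01 (edgeR adjusted p = 0.122), and 5.22 without that library (edgeR adjusted p = 0.000568). Hb vs. Lb was called at 2.57 ± 0.81 (edgeR adjusted p = 0.0881), and not without Hb library 3 (2.14, edgeR adjusted p = 0.303). Without Hb library 1 it was 4.87 (edgeR adjusted p = 0.001). In libraries 1, 2 and 3 of Hb the epithelium list summed to 248, 52.5 and 88.2 TPM and the list of other nervous system miRNAs to 988, 372 and 588 TPM, the same order. The gonad list had that order too (17266, 9608 and 16387 TPM), and the remaining marker lists had other orders. In Lb the epithelium list summed to 155, 380.3 and 142 TPM, another order than that of ssc-miR-129a-3p, and in La to 157 to 231 TPM. The part of these lists in the spread was not tested.

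Both MIR129A and MIR129B are annotated, and which gene each miR-129 3p row comes from was not tested. miR-129-y, which differs from ssc-miR-129a-3p by C20T, had a smaller log2 fold change with age in LC than that row. It had 2.67, 3.15 and 3.98 TPM in Ha, 3.77, 0.109 and 1.16 in Hb, 3.66, 1.71 and 3.06 in La, and 6.29, 4.93 and 4.72 in Lb, with no overlap between La and Lb and a log2 fold change of 0.73 ± 0.31 (edgeR adjusted p = 0.0796). It was called only in Hb vs. Lb (1.58 ± 0.60, edgeR adjusted p = 0.146), at 2.68 without Hb library 1. Without that library it was also called down in Ha vs. Hb (-2.05, edgeR adjusted p = 0.012). Of the tags of both 3p forms, it made up 44.7%, 21.7% and 40.6% in La and 8.06%, 8.47% and 18.1% in Lb. The 3 Lb libraries lay below the 3 La libraries, and these shares were not tested. In HZ the share was 26.6%, 30.7% and 42.6% in Ha and 14.4%, 20.0% and 36.0% in Hb, the 20.0% resting on 1 of 5 tags.

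miR-124, the miRNA most restricted to neurons, was the most abundant of these rows by mean TPM over the 12 libraries, ranking 146 of 1452, and was called in no comparison. In Hb the mean of ssc-miR-9-1 was higher (248 against 239.8 TPM). ssc-miR-124a had 257, 254 and 248 TPM in Ha, 357, 166 and 196 in Hb, 171, 216 and 191 in La, and 328, 312 and 399 in Lb. In HZ the ages overlapped and the log2 fold change was -0.01 ± 0.25 (edgeR adjusted p = 0.974). In LC each library at 120 days lay above each at 30 days, and the value of 0.66 ± 0.14 (edgeR adjusted p = 0.00248) stayed under the fold threshold. The mean was 1.80 times higher in Lb (346 ± 46.5) than in La (193 ± 22.5). The difference between the age effects was not called (0.62, edgeR adjusted p = 0.199). miR-124-y had means of 13.1, 11.6, 9.45 and 16.9 TPM in Ha, Hb, La and Lb. The low-count miR-124-z and miR-124-x had 76 and 74 counts in all.

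The ratio of the arms of a hairpin within a library does not depend on how libraries are scaled, and it was compared between ages for miR-9, miR-129 and miR-384, whose arms each had a mean of at least 10 counts per library. miR-384 reached this mean only through Ha. The miR-9 and miR-129 rows may come from several loci, and 1 row stands for each arm. For miR-9 the mean log2 ratio of 5p to 3p counts was 2.66 ± 0.15 in Ha and 2.17 ± 0.13 in Hb, and 2.70 ± 0.19 in La and 2.34 ± 0.13 in Lb. It was lower at 120 days by 0.50 in HZ and by 0.36 in LC. The mean difference of -0.43 had an exact permutation p = 0.005 with ages permuted within breed, the smallest that 400 arrangements can give, and an adjusted p of 0.015. The 3p share rose accordingly, from 11.7 to 14.7% in the libraries at 30 days to 15.7 to 19.4% at 120 days.

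With ssc-miR-129a-3p as its 3p row, the arm ratio of miR-129 moved by 1.88 in HZ and by -0.74 in LC, and the joint difference with age of 0.57 did not pass (exact permutation p = 0.435, adjusted p = 0.652). On this row the 3p share was 37.1%, 43.9% and 40.7% in La and 57.7%, 54.4% and 47.7% in Lb. With miR-129-y added to the 3p tags it was 51.6%, 50.0% and 53.6% in La and 59.7%, 56.6% and 52.7% in Lb, so that the ages overlapped and the log2 ratio moved by -0.27 in place of -0.74. On ssc-miR-129a-3p alone, the share in Hb was 39.3% in library 1 (Wilson 95% interval 34.8 to 44.1%), 3.67% in library 2 (1.44 to 9.06%, 4 of 109 tags) and 9.70% in library 3 (6.06 to 15.2%, 16 of 165 tags). The Ha libraries had 37.2%, 38.3% and 29.0%, so that the share in Hb library 1 lay just above those in Ha and the shares in the other two lay below them. With both forms the shares were 44.7%, 47.2% and 41.6% in Ha and 43.1%, 4.55% and 14.4% in Hb. These Wilson intervals cover counting error only, not the spread between libraries. For miR-384 the 3p arm held 73.6%, 80.6% and 80.9% of 182, 134 and 236 tags in Ha. The other libraries had only 5 to 64 tags on both arms, down to 3 of 5 tags in La library 1 (60.0%, Wilson 95% interval 23.1 to 88.2%), too few to compare the ages.

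**Figure D4:**
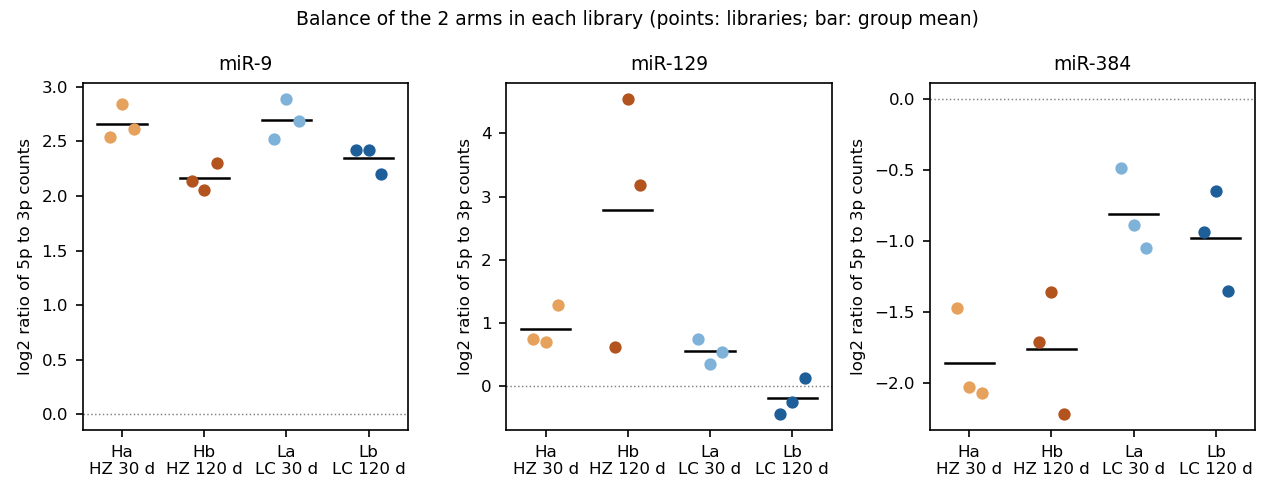
Log2 ratio of 5p to 3p counts (each plus 0.5) of the miR-9, miR-129 and miR-384 hairpins in each library. Points are libraries 1 to 3 of each group. For miR-9 the libraries at 120 days lie lower in both breeds, and for miR-129 Hb libraries 2 and 3 stand at 4.55 and 3.18 while library 1 is at 0.62.

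Other miRNAs known from the nervous system (miR-7, miR-128, miR-132, miR-138, miR-212, miR-218, miR-219, miR-338, miR-488 and miR-873, with 30 rows) were counted beside these families. In Ha vs. Hb 7 of 30 were called up and 2 down, where 25.1% and 14.4% of all rows were, and in La vs. Lb 6 were called up and 4 down, where 26.3% and 5.81% of all rows were. miR-132-x, whose family is induced by activity in neurons together with miR-212, was called up in HZ and LC, at log2 fold changes of 2.20 ± 0.34 (edgeR adjusted p = 0.000256) and 1.50 ± 0.19 (edgeR adjusted p = 3.54e-05). miR-873-x fell in both, at -2.11 ± 0.60 (edgeR adjusted p = 0.015) and -1.96 ± 0.37 (edgeR adjusted p = 0.000981). The median log2 fold change of the list with age was -0.11 in HZ and 0.16 in LC. In Ha vs. La 2 rows were called, both up, where 9.47% of all rows were called. In Hb vs. Lb, where 16.8% of all rows were called, none was by edgeR or DESeq2, and none had an unadjusted edgeR p under 0.05. The summed level of the list was 686 to 788 TPM in Ha and 372 to 988 in Hb, and 661 to 715 in La and 749 to 767 in Lb.

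For each family, the rows outside it whose levels ran most alike over the 12 libraries were found by Pearson's r of log2(TPM + 1) among 426 rows with a mean of at least 10 TPM. These values are descriptions, since the libraries fall into ages and breeds and share their normalization. ssc-miR-9-1 ran with miR-34-x (r = 0.993), a miRNA predicted by the authors (0.989) and miR-34-y (0.989), the last of which had means of 10.3, 1528, 4.02 and 1442 TPM in Ha, Hb, La and Lb. miR-383-x ran with ssc-miR-375 (0.966), another predicted miRNA (0.966) and miR-147-y (0.963), and ssc-miR-153 with miR-465-y (0.946), miR-201-y (0.941) and ssc-miR-30a-3p (0.931). ssc-miR-129a-5p ran with ssc-miR-345-5p (0.958), miR-193-y (0.946) and ssc-miR-212 (0.943).

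ssc-miR-137 ran with miR-148-z (0.971), at means of 11.3, 4.23, 12.8 and 12.5 TPM in Ha, Hb, La and Lb, and with ssc-miR-142-3p (0.921), a leukocyte miRNA, and miR-125-y (0.915). Spearman's rho was lower for these 3 rows, at 0.692, 0.727 and 0.399. miR-384-y ran with ssc-miR-31 (0.896), whose means were 97.2 and 90.0 TPM in Ha and Hb and 13.9 and 14.9 TPM in La and Lb, a breed difference with little of the fall of miR-384-y between the HZ ages, and with ssc-miR-378b-3p (0.833) and ssc-miR-378 (0.785). For ssc-miR-124a, added after its values were seen, the rows were miR-142-x (0.917), miR-185-x (0.853) and ssc-miR-185 (0.844).

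Markers of other cells also moved with the groups, and their part in these results was not tested. Smooth muscle rows (miR-143 and miR-145) summed to 20687 to 36347 TPM at 30 days and 55596 to 92500 TPM at 120 days. Striated muscle rows summed to 109 to 285 TPM at 30 days and 453 to 846 TPM at 120 days. Leukocyte rows summed to 1040.1 to 1087 TPM in Ha and 417 to 869 in Hb, and 1300.0 to 1441 in La and 759 to 1177 in Lb, with the lowest values in Hb, where ssc-miR-137 was also lowest. Erythroid rows summed to 1357 to 1768 TPM in Ha and 863 to 2298 in Hb, and to 2201 to 2468 TPM in La and 1220.0 to 1272 in Lb, with no overlap of the LC ages. In TPM, endothelial rows (miR-126) summed to less at 120 days without overlap in either breed. They had 12672 to 15839 TPM in Ha and 11458 to 12312 in Hb, and 11712 to 13364 in La and 8701 to 11242 in Lb. The 12312 TPM are those of Hb library 2 and carry no TMM factor (0.694). The lack of overlap in HZ therefore holds for TPM and not for the scale of the fits. Epithelial rows summed to 52.5 to 380.3 TPM over the 12 libraries.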

How the data were processed

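The authors filtered reads with fastp, removed tags of other non-coding RNAs and of exons, introns and repeats of the pig genome, aligned the remaining tags to miRBase by bowtie and used miRDeep2 for prediction and counting. The deposited counts are raw tags per miRNA and library, and the TPM are the authors' scaling of them, with 0 written as 0.01. Means, SDs, marker sums and statements on overlap use these TPM, which the TMM factors of the fits do not scale. The deposited table of predicted hairpins was not used. What the endings -x, -y and -z mean is not given in the sources used here, and arms were assigned from the sequences.

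Counts were tested with edgeR 4.0.16 (R 4.3.3): TMM, glmQLFit, glmQLFTest, one fit of 6 libraries per comparison over rows with at least 1 count, and all 12 libraries for the difference between age effects, called at an adjusted p under 0.05. On simulated counts for Ha vs. Hb, 191 of 200 rows changed by 2 on the log2 scale were called and 32 of 1221 unchanged rows were. For the difference between age effects the numbers were 130 of 200 and 4 of 1252. The changed rows left out rows of the lowest counts. The dispersion was an assumed function of the mean count, the same in all groups, and libraries differed in size but not in composition. These numbers therefore do not cover low-count rows or the wide spread within Hb. SE is the absolute log2 fold change over the root of the F statistic. Depth-scaled ratios of low counts carry exact intervals. Arm ratios were log2 of counts plus 0.5 on hairpins with a mean of at least 10 counts per arm, tested by a two-sided exact permutation test adjusted over 3 hairpins, of which miR-384 had too few counts outside Ha and its result is not reported.

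Rows with a mean of at least 1 TPM, or called in a comparison, are named with values. The families, lists (germ cells, gonad, blood cells, muscle, epithelium, endothelium, other nervous system) and tests were chosen with earlier results of these data known. Alternatives were RLE normalization, library size alone, DESeq2 1.42.0, filterByExpr, merged identical sequences, a replicate block, one fit of all libraries, adjusted p for the call, other settings of the arm test, and leaving out each library.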

Additional observations from a re-analysis of the deposited data

Results flagged for a closer look

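The age effect of ssc-miR-137 differed between the breeds, by 1.80 ± 0.38 on the log2 scale (edgeR adjusted p = 0.0355). Its level fell in all 3 Hb libraries relative to Ha, while La and Lb overlapped. The difference ranged from 1.62 to 2.16 over 18 alternatives, with edgeR or DESeq2 adjusted p from 0.000909 to 0.136, and 9 of them kept it under 0.05.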

How the results depend on the processing

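Of 125 fitted fold changes of the 25 rows, 27 changed sign under some alternative, and in 1 of these the value was called in the original or the alternative fit: ssc-miR-129a-3p in Ha vs. Hb was 0.16, and -2.08 without Hb replicate 1 (0.71 without Hb replicate 2). Leaving out 1 library gave 12 to 16 calls in Ha vs. Hb (main 12, 16 without Hb replicate 2), 12 to 13 in La vs. Lb (main 12), 2 to 4 in Ha vs. La (main 2, 4 without Ha replicate 1), 5 to 9 in Hb vs. Lb (main 8, 5 without Hb replicate 3) and 0 to 5 for the difference between age effects (main 1, 5 without Hb replicate 1), where 7 to 11 rows passed at an unadjusted p under 0.05. That count was 0 without Ha replicates 1 or 2, Hb replicate 3, Lb replicates 1 or 3 or any La replicate, 0 with library size alone (10 at an unadjusted p), and 3 with DESeq2. The rows gained with DESeq2 and without Hb replicate 1 were all of miR-129. Library size alone gave 4 calls in Ha vs. La and moved the median of all rows by 0.22 in La vs. Lb and 0.27 in Hb vs. Lb, and the adjusted p left 4 calls in Hb vs. Lb. ssc-miR-153 was called in Ha vs. La under 6 of 13 alternatives (-1.21 without Ha replicate 1, but -0.57 and not called without Ha replicate 3). In Hb vs. Lb, ssc-miR-383 lost its call with library size alone and without Hb replicate 3 or Lb replicate 3 (-1.96, -1.95 and -1.70), and miR-129-y without Hb replicate 3 or Lb replicate 1 (1.43 and 1.47). Calls gained were those of miR-124-z in La vs. Lb (library size, without Lb replicate 2), miR-137-x in La vs. Lb (library size, without Lb replicate 1) and Ha vs. La (library size, without Ha replicate 1), and miR-9-y in Ha vs. Hb (RLE, 1 fit of all libraries, without Hb replicate 2 or 3), among others. The cause of these changes was not tested.

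The arm ratio of miR-9 differed with age by -0.46 to -0.39 when 1 library was left out, and that of miR-129 by -0.08 to 0.92. In alternatives chosen after seeing the data, the miR-129 difference was 1.95 with miR-129-y as the 3p row (exact permutation, adjusted p = 0.0075) and 0.91 with both 3p forms summed (exact permutation, adjusted p = 0.525).

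Samples of the same number did not deviate together (correlations from -0.21 to 0.18, above 0.1 in 2 of 12 pairs, the own number highest in 5 of 12). A replicate block gave 12 calls with age in each breed, 2 between breeds at 30 days, 8 at 120 days and 1 for the difference between age effects, and changed none of 125 fold-change calls, though ssc-miR-129a-3p in Ha vs. Hb turned to -0.84 (edgeR adjusted p = 0.46).

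Rows near 3 counts, such as ssc-miR-383, miR-384-y and miR-384-x in LC, limit any statement on their decrease or absence. The precision is set by 3 libraries per group.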
